A study of Mus musculus with 18 samples.

Results

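Collagen genes, the genes for the chains of the triple-helical proteins that fill the extracellular matrix, were followed through heat shock and through the knockdown of HSF1 or SSBP1 in mouse fibroblasts. Every probe set that was annotated to exactly 1 gene symbol of the form Col, number, a, number was taken, and the brightest probe set stood for each symbol. This gave 44 collagen genes from 46 probe sets, out of 19938 symbols on the array. The rule used names and brightness over all arrays and no comparison between groups.

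The RNA came from immortalized mouse embryonic fibroblasts (MEF) of ICR background and was measured on 18 Mouse Gene 1.0 ST arrays. All cells were infected for 2 h with an adenovirus that carried a short hairpin or scrambled RNA and were then kept for 70 h in normal medium, so that no group was free of virus. SCR cells received the scrambled RNA, HSF1-KD cells an shRNA against heat-shock factor 1, the transcription factor that drives the heat-shock response, and SSBP1-KD cells an shRNA against a single-stranded DNA-binding protein of mitochondria. Dishes of each kind either stayed at 37 °C (Cont) or spent 1 h at 42 °C (HS), with 3 arrays in each of the 6 groups. No cell type was singled out by the virus, and the labels do not say whether the 3 arrays of a group came from separate cultures, so that p-values measure only the spread between these arrays, which may be technical.

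A collagen chain is made in the endoplasmic reticulum, where prolines and lysines are hydroxylated, chains wind into the triple helix and the collagen chaperone HSP47, encoded by Serpinh1, holds the helix until it leaves the compartment. Fibrillar collagens form the banded fibrils of skin, bone and tendon, network collagens form sheets such as the basement membrane, and FACIT collagens sit on the surface of fibrils. Fibroblasts are a main source of the fibrillar type I and type III collagens and of type VI collagen, which forms beaded filaments around cells.

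Several collagen genes lie side by side in the genome. In the RefSeq gene table of mouse, no protein-coding gene lay between Col3a1 and Col5a2 or between Col4a3 and Col4a4 on chromosome 1, between Col4a1 and Col4a2 on chromosome 8, between Col6a1 and Col6a2 on chromosome 10, or between Col4a5 and Col4a6 on chromosome X. The table of promoters from RefSeq (GRCm38.p6) held 38 windows for 35 of the 44 genes, each with 250 bases before and 50 after a gene's start. The stretches before the start are shown for genes that moved together in the arrays, with 4 short motifs in capitals, searched on both strands. GAANNTTC is an inverted pair of the unit that makes up heat-shock elements, CCAAT (on the other strand read as ATTGG) is the CCAAT box, TATAAA is a TATA box, and the GC box is GGGCGG (on the other strand read as CCGCCC). In capitals, a run can hold overlapping matches of the last. Col1a2 lies at chr6:4505368-4505617 on the plus strand, Col6a1 at chr10:76726045-76726294 and Col6a2 at chr10:76623631-76623880, both on the minus strand, Col4a5 at chrX:141475169-141475418 on the plus strand and Col4a6 at chrX:141474077-141474326 on the minus strand. Another stretch of Col6a2, at chr10:76623405-76623654, is not shown. In it GGGCGG lay on the other strand at -67, -15 and -11 bases from the start, the latter pair overlapping.
Col1a2: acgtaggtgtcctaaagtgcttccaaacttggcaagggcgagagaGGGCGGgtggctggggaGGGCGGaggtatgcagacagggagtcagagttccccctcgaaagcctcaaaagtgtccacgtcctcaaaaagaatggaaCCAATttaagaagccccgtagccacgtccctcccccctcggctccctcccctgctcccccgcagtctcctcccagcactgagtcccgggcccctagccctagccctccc
Col6a1: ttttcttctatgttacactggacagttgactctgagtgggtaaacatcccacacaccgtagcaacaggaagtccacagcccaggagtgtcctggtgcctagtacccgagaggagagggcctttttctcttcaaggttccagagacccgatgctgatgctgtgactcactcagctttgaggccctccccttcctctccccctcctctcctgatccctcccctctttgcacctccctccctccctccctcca
Col6a2: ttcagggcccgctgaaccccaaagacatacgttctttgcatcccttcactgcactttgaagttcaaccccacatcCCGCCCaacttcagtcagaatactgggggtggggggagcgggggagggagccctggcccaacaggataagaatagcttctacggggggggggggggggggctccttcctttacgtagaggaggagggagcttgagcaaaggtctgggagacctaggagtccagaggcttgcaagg
Col4a5: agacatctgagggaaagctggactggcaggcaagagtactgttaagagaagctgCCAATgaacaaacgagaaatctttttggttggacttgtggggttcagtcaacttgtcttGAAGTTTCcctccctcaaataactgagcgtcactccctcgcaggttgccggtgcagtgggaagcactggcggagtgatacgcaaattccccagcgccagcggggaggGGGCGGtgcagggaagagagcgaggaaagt
Col4a6: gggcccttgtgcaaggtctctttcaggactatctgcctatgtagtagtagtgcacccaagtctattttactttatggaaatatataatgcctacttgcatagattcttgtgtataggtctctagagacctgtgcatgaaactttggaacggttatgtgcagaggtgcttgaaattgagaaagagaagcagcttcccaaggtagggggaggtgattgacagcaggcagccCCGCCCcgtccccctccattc
The starts of Col4a1 and Col4a2 that the table uses lay 21 bases apart on opposite strands, and the 2 windows shared 78 bases. The stretch just before the Col4a2 start, chr8:11312771-11312800 on the plus strand, holds a CCAAT box, which is not wholly inside the shared bases or the Col4a1 window.
Col4a2: ccCCAATttgttggcgctgccccctcccct
GAANNTTC was found in 1 of the 38 collagen windows (2.63%), that of Col4a5, against 7.86% of all 32851 promoter windows. CCAAT was found in 13 collagen windows (34.2%, against 37.4% of all) and TATAAA in 5 (13.2%, against 13.6%). GGGCGG was found in 23 (60.5%, against 35.7%), with windows in Col1a2, Col6a2, Col4a5 and Col4a6 among them and none in Col6a1. These are matches of letters and not measured binding sites.

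The arrays were alike in overall brightness, with medians of log2 signal from 7.88 to 7.94. Replicate 1 of SSBP1-KD Cont stood apart, with a mean absolute residual of 0.152 over all probe sets and 0.130 over the collagen genes. Ssbp1 had log2 signals of 9.36 to 9.54 in SCR Cont against 9.02 to 9.32 in SSBP1-KD Cont, and of 9.03 to 9.09 in SCR HS against 8.57 to 8.71 in SSBP1-KD HS, so that the knockdown arrays were lower and did not overlap. Hsf1 was not analysed here, since no probe set carried that symbol alone. Fibroblast markers were present: 8 of 11 were brighter than the median of all probe sets (7.90), which none of the 7 epithelial markers was. The summed signal of the fibroblast markers ranged from 40060 to 41230 in the SCR arrays and from 36270 to 38410 in the knockdown arrays, without overlap. Such sums were taken on the linear scale and mostly reflect the brightest markers of a list. The single fibroblast markers went both ways, as counted further below.

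The first question was whether heat shock itself changed collagen RNA. Within 1 h it did so for few genes or none. In SCR cells 0 of 44 collagen genes rose and 0 fell at an adjusted p under 0.05 (limma), where 7.63% of all symbols rose and 8.34% fell, and 2 collagen genes passed an unadjusted p of 0.05. Their log2 differences ran from -0.10 for Col8a1 to 0.12 for Col9a3, with a median of 0.022 against -0.0065 over all symbols. The widest bound of the 44 95% confidence intervals was 0.34 on the log2 scale, at Col9a3, and all 44 intervals lay within a 1.5-fold change in either direction.

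In HSF1-KD cells 2 of 44 collagen genes fell with heat and 0 rose (background 10.8% and 10.6%). Col1a2, the α2 chain of type I collagen, fell by 0.18 on the log2 scale (limma, adjusted p = 0.0275) and Col6a1 fell by 0.17 (adjusted p = 0.0460). For Col1a2 this call was lost in 6 of 16 alternative settings (adjusted p = 0.0682 to 0.0948), under a fit of only the compared arrays and the methods' t-test and without replicate 1 or 3 of HSF1-KD Cont or replicate 2 or 3 of HSF1-KD HS (0.0682 to 0.0948 without these arrays). For Col6a1 this call was lost in 8 of 16 alternative settings (adjusted p = 0.0572 to 0.128), under a fit of only the compared arrays and the replicate block and without replicate 1, 2 or 3 of HSF1-KD Cont or replicate 1, 2 or 3 of HSF1-KD HS (0.0691 to 0.129 without these arrays). In SSBP1-KD cells Col12a1, a FACIT collagen of fibril surfaces, rose by 0.20 (limma, adjusted p = 0.0340) and 0 of 44 fell (background 4.08% and 2.82%). For Col12a1 this call was lost in 7 of 16 alternative settings (adjusted p = 0.0618 to 0.211), under repeated quantile normalization, a fit of only the compared arrays and the methods' t-test and without replicate 1 of SSBP1-KD Cont or replicate 1, 2 or 3 of SSBP1-KD HS (0.0703 to 0.112 without these arrays).

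The difference between heat responses was tested directly. It passed for 0 of 44 collagen genes in HSF1-KD against SCR, where 0.346% of all symbols passed in either direction, and for 0 of 44 in SSBP1-KD against SCR, where 0.492% did. At an unadjusted p of 0.05, 2 and 1 collagen genes passed. The confidence intervals reached 0.54 on the log2 scale at the widest (Col10a1 in HSF1-KD), and a p that missed the threshold does not show that the responses were equal.

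The second question was how collagen RNA differed between knockdown and SCR cells. In both knockdowns part of the fibrillar, network and beaded-filament genes was lower, and the pair Col4a1 and Col4a2 was higher in 3 of the 4 comparisons. HSF1-KD Cont had 11 of 44 collagen genes lower than SCR Cont (25%, background 10.1%) and 2 higher (background 10.9%). HSF1-KD HS had 11 lower (25%, background 10.7%) and 0 higher than SCR HS (background 13.1%). SSBP1-KD Cont had 13 lower (29.5%, background 16.5%) and 3 higher (background 14.6%), and SSBP1-KD HS had 14 lower (31.8%, background 14.4%) and 2 higher (background 14.3%). Without replicate 1 of SSBP1-KD Cont the count in Cont stayed at 16 collagen genes, but with 14 lower and 2 higher. Without replicate 3 it was 18, with 12 lower and 6 higher. Medians over the 44 genes were -0.012, -0.00054, 0.055 and -0.012 in these 4 comparisons, against 0.033, 0.031, 0.051 and 0.025 over all symbols, so that the list's medians lay near 0 and the falls were those of certain members.

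The same 11 genes fell in all 4 comparisons: Col1a1, Col1a2, Col3a1 and Col5a2 of the fibrillar type, Col4a4, Col4a5, Col4a6 and Col8a2 of the network type, Col12a1 of the FACIT type, and Col6a1 and Col6a2 of type VI. The comparisons in Cont and in HS share no arrays, while both knockdowns were set against the same SCR arrays. HSF1-KD in Cont and SSBP1-KD in HS, which also share none, had all 11 falls of the first (100%) among the 14 of the second (78.6%). The spread of each gene was estimated once over all 18 arrays and used in every comparison. The 4 calls of a gene were thus not independent of each other. The shares of all symbols that passed in all 4 comparisons or in none were not computed, so this recurrence has no background. In total 27 of the 44 passed in none of the 4 comparisons, and 15 of these were brighter than the median of all probe sets. Of the 30 collagen genes brighter than that median, 10 to 13 fell in a comparison, and of the 14 dimmer ones 1, Col8a2. The median standard error was 0.062 for the brighter and 0.088 for the dimmer genes. The same split was not made over all symbols, so the background shares cover symbols of every brightness. In bulk RNA, fewer cells of a type and less RNA per cell cannot be told apart.

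**Figure D1:**
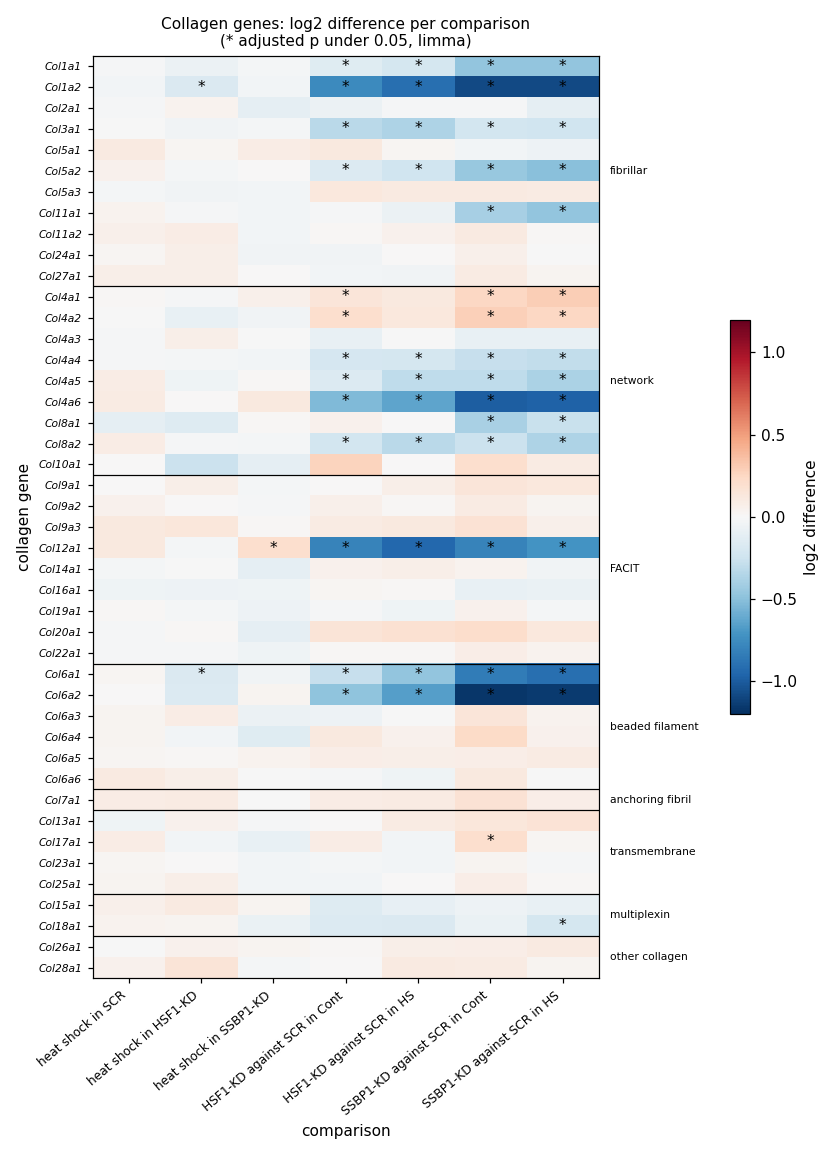
The map gives the log2 difference of each of the 44 collagen genes (rows, ordered by type) in 3 heat-shock comparisons and 4 comparisons of knockdown with SCR (columns), blue for lower and red for higher, with a star for an adjusted p under 0.05 (limma). The 3 heat columns are nearly blank, and the same 11 rows are blue in all 4 knockdown columns.

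Type I collagen, the main fibrillar collagen, is built from α1 chains (Col1a1) and an α2 chain (Col1a2), and the log2 signal of Col1a2 moved more. Col1a2 gave log2 signals of 12.26, 12.26 and 12.38 in SCR Cont, 12.21, 12.30 and 12.29 in SCR HS, 11.58, 11.46 and 11.56 in HSF1-KD Cont, 11.39, 11.33 and 11.35 in HSF1-KD HS, 11.29, 11.22 and 11.14 in SSBP1-KD Cont and 11.17, 11.14 and 11.24 in SSBP1-KD HS. All knockdown arrays lay below all SCR arrays, and the SSBP1-KD arrays lay below the HSF1-KD arrays of the same temperature. Against SCR, Col1a2 differed by -0.76 ± 0.053 (SE) in HSF1-KD Cont and -0.91 ± 0.053 in HSF1-KD HS (limma, adjusted p = 4.24e-07 and 3.24e-08). In SSBP1-KD it differed by -1.08 ± 0.053 in Cont and -1.08 ± 0.053 in HS (limma, adjusted p = 2.30e-08 and 4.04e-08), 2.12 times lower in Cont.

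Col1a1 gave log2 signals of 12.74, 12.73 and 12.81 in SCR Cont, 12.75, 12.75 and 12.73 in SCR HS, 12.63, 12.55 and 12.66 in HSF1-KD Cont, 12.59, 12.51 and 12.52 in HSF1-KD HS, 12.36, 12.27 and 12.24 in SSBP1-KD Cont and 12.28, 12.23 and 12.30 in SSBP1-KD HS. Its groups were ordered like those of Col1a2 and did not overlap between knockdown and SCR, with smaller steps. The log2 difference was -0.15 in HSF1-KD Cont, -0.21 in HSF1-KD HS, -0.47 in SSBP1-KD Cont and -0.48 in SSBP1-KD HS. For Col1a1 the call in HSF1-KD Cont was lost in 7 of 16 alternative settings (adjusted p = 0.0566 to 0.254), under repeated quantile normalization, a fit of only the compared arrays and the methods' t-test and without replicate 1 or 3 of SCR Cont or replicate 1 or 2 of HSF1-KD Cont (0.0566 to 0.146 without these arrays).

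Within each array, Col1a2 minus Col1a1 on the log2 scale averaged -0.46 ± 0.027 in SCR Cont and -0.48 ± 0.057 in SCR HS (SD, n = 3), and -1.08 ± 0.027, -1.18 ± 0.011, -1.07 ± 0.021 and -1.09 ± 0.030 in HSF1-KD Cont, HSF1-KD HS, SSBP1-KD Cont and SSBP1-KD HS. The knockdown arrays thus had a larger gap between both chains, by 0.61 to 0.70, and did not overlap with SCR. An exact two-sided permutation test gave p = 0.1 in each of the 4 comparisons, the smallest p that 3 against 3 arrays allow, and 0.126 after adjustment over the 24 tests of chain pairs. This test thus could not pass at 0.05, and the difference between 2 probe sets describes their signals and gives no ratio of chains.

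Col3a1, the single chain of type III collagen that fills soft tissues and often runs with type I, gave log2 signals of 9.64, 9.58 and 9.76 in SCR Cont, 9.65, 9.72 and 9.61 in SCR HS, 9.34, 9.32 and 9.35 in HSF1-KD Cont, 9.26, 9.23 and 9.39 in HSF1-KD HS, 9.59, 9.37 and 9.37 in SSBP1-KD Cont and 9.40, 9.41 and 9.45 in SSBP1-KD HS. It was lower in HSF1-KD, with log2 differences of -0.33 in Cont and -0.37 in HS, and lower by less in SSBP1-KD, with -0.22 and -0.24. Replicate 1 of SSBP1-KD Cont read within the range of the SCR Cont arrays. For Col3a1 the call in SSBP1-KD Cont was lost in 6 of 16 alternative settings (adjusted p = 0.0798 to 0.237), under repeated quantile normalization, a fit of only the compared arrays and the methods' t-test and without replicate 3 of SCR Cont or replicate 2 or 3 of SSBP1-KD Cont (0.0798 to 0.109 without these arrays). That in SSBP1-KD HS was lost in 2 of 16 alternative settings (adjusted p = 0.0610 to 0.0656), under repeated quantile normalization and without replicate 2 of SCR HS (0.0610 without this array). That in HSF1-KD Cont was lost in 1 of 16 alternative settings (adjusted p = 0.0510), under the methods' t-test.

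Col5a2, a chain of type V collagen, which sits in the core of type I fibrils, gave log2 signals of 10.48, 10.46 and 10.52 in SCR Cont, 10.49, 10.58 and 10.55 in SCR HS, 10.34, 10.33 and 10.30 in HSF1-KD Cont, 10.35, 10.27 and 10.29 in HSF1-KD HS, 10.00, 10.03 and 10.05 in SSBP1-KD Cont and 10.10, 9.99 and 10.01 in SSBP1-KD HS. The groups stepped down from SCR to HSF1-KD to SSBP1-KD with no overlap, and the log2 differences from SCR were -0.16 and -0.24 in HSF1-KD and -0.46 and -0.51 in SSBP1-KD, in Cont and HS. For Col5a2 the call in HSF1-KD Cont was lost in 3 of 16 alternative settings (adjusted p = 0.0509 to 0.0757), under a fit of only the compared arrays and without replicate 3 of SCR Cont or replicate 3 of HSF1-KD Cont (0.0509 to 0.0609 without these arrays). Its partner chain Col5a1 passed in none of the 4 comparisons, with log2 differences of 0.12, 0.03, -0.03 and -0.06. Col5a2 minus Col5a1 within an array differed from SCR by -0.28, -0.26, -0.42 and -0.45, without overlap (exact permutation p = 0.1 in each, adjusted 0.126). Col5a2 neighbours Col3a1 on chromosome 1, and both fell in all 4 comparisons.

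Col11a1, a chain of type XI collagen of cartilage fibrils, fell in SSBP1-KD alone by the test. It gave log2 signals of 9.18, 9.14 and 9.32 in SCR Cont, 9.21, 9.29 and 9.26 in SCR HS, 9.23, 9.14 and 9.21 in HSF1-KD Cont, 9.16, 9.15 and 9.23 in HSF1-KD HS, 8.88, 8.73 and 8.83 in SSBP1-KD Cont and 8.75, 8.74 and 8.85 in SSBP1-KD HS. The SSBP1-KD arrays lay below all others, while the HSF1-KD arrays overlapped with SCR. Log2 differences from SCR were -0.40 and -0.47 in SSBP1-KD Cont and HS (limma, adjusted p = 9.31e-05 and 2.27e-05) and -0.02 and -0.07 in HSF1-KD. The direct comparison of both knockdowns put Col11a1 lower in SSBP1-KD, with log2 differences of -0.38 in Cont and -0.40 in HS (limma, adjusted p = 1.19e-04 and 9.74e-05). The other fibrillar genes, Col2a1 of cartilage, Col5a3, Col11a2, Col24a1 and Col27a1, passed in none of the 4 comparisons, and their log2 differences lay within -0.11 to 0.13.

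**Figure D2:**
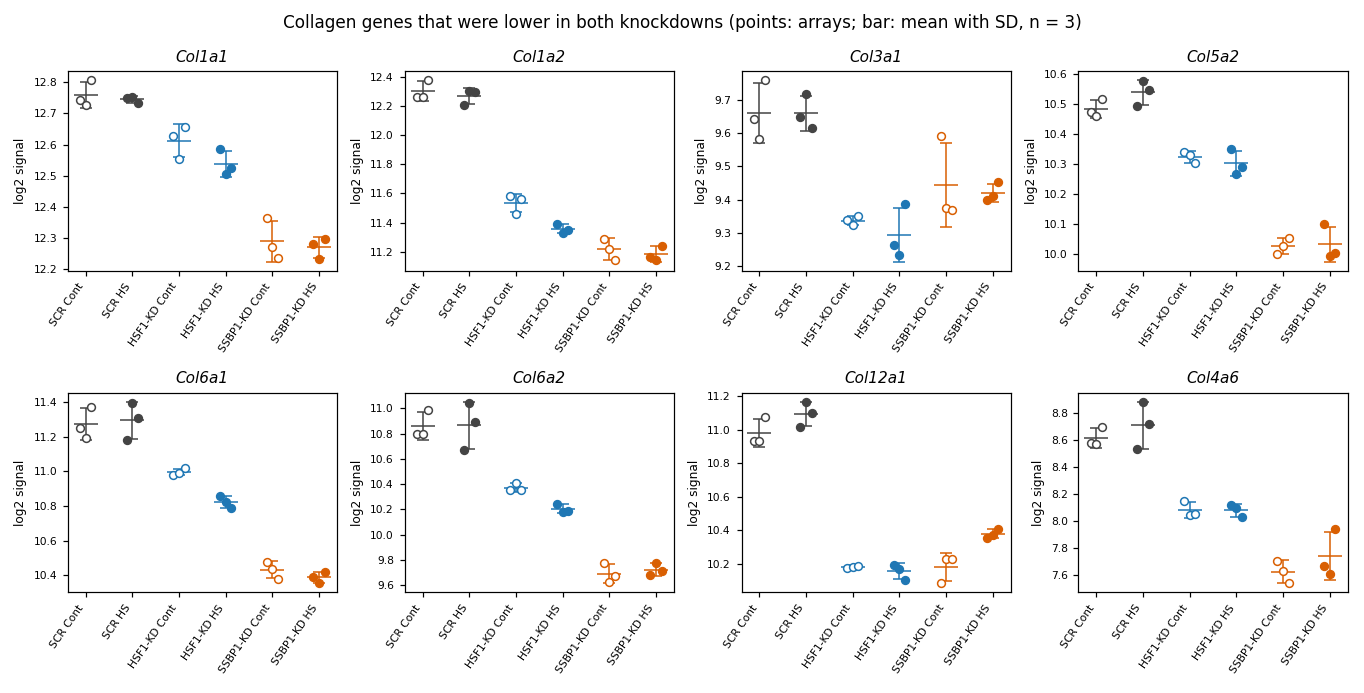
Log2 signals of 8 collagen genes are plotted by array in the 6 groups, open points for Cont and filled points for HS, with the group mean and SD (n = 3). SCR stands highest in every panel, and for 6 of the genes SSBP1-KD stands below HSF1-KD at both temperatures, Col3a1 and Col12a1 being the others.

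Type VI collagen is assembled from α1, α2 and α3 chains into beaded filaments near the cell surface. The neighbours Col6a1 and Col6a2 fell together and had the largest falls in SSBP1-KD beside Col1a2 and Col4a6. Col6a2 gave log2 signals of 10.80, 10.79 and 10.98 in SCR Cont, 10.67, 11.04 and 10.89 in SCR HS, 10.35, 10.41 and 10.35 in HSF1-KD Cont, 10.25, 10.18 and 10.19 in HSF1-KD HS, 9.78, 9.63 and 9.67 in SSBP1-KD Cont and 9.68, 9.78 and 9.72 in SSBP1-KD HS. The 3 kinds of cells formed separate levels with no overlap. In SSBP1-KD Cont Col6a2 was 2.25 times lower than in SCR Cont, a log2 difference of -1.17 ± 0.079 (SE), and in SSBP1-KD HS 2.21 times lower, -1.14 ± 0.079 (limma, adjusted p = 2.29e-07 and 2.78e-07). In HSF1-KD the log2 differences were -0.49 in Cont and -0.66 in HS.

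Col6a1 gave log2 signals of 11.25, 11.19 and 11.37 in SCR Cont, 11.18, 11.40 and 11.31 in SCR HS, 10.98, 10.99 and 11.02 in HSF1-KD Cont, 10.86, 10.82 and 10.79 in HSF1-KD HS, 10.48, 10.44 and 10.38 in SSBP1-KD Cont and 10.39, 10.35 and 10.42 in SSBP1-KD HS. Its arrays took the same order as those of Col6a2, with log2 differences of -0.28 and -0.47 in HSF1-KD and -0.84 and -0.91 in SSBP1-KD. For Col6a1 the call in HSF1-KD Cont was lost in 1 of 16 alternative settings (adjusted p = 0.0713), under the methods' t-test. Col6a2 minus Col6a1 within an array differed from SCR by -0.21, -0.19, -0.33 and -0.24, without overlap (exact permutation p = 0.1 in each, adjusted 0.126).

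Col6a3, the third partner chain of type VI, did not follow. It gave log2 signals of 7.77, 7.74 and 7.79 in SCR Cont, 7.86, 7.78 and 7.76 in SCR HS, 7.78, 7.61 and 7.75 in HSF1-KD Cont, 7.74, 7.68 and 7.98 in HSF1-KD HS, 8.13, 7.83 and 7.79 in SSBP1-KD Cont and 7.84, 7.79 and 7.89 in SSBP1-KD HS, and each knockdown group overlapped with its SCR group, with replicate 1 of SSBP1-KD Cont as the highest array. Its log2 differences were -0.06 in HSF1-KD Cont, 0.15 in SSBP1-KD Cont and 0.04 in SSBP1-KD HS, and none passed. Col6a3 minus Col6a1 within an array differed from SCR by 0.22 and 0.47 in HSF1-KD and by 0.99 and 0.95 in SSBP1-KD, without overlap, and did not pass (exact permutation p = 0.1, the smallest possible, adjusted 0.126). Col6a3 read below the median of all probe sets on average, where the standard errors were larger. Col6a4, Col6a5 and Col6a6, which can take the place of the α3 chain, passed in none of the 4 comparisons.

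The network collagens went both ways. Type IV collagen forms the sheet of basement membranes, most widely from Col4a1 and Col4a2, with Col4a3 to Col4a6 in special membranes. Col4a1 gave log2 signals of 9.66, 9.65 and 9.60 in SCR Cont, 9.66, 9.70 and 9.60 in SCR HS, 9.75, 9.83 and 9.75 in HSF1-KD Cont, 9.82, 9.74 and 9.74 in HSF1-KD HS, 9.92, 9.89 and 9.84 in SSBP1-KD Cont and 10.01, 9.88 and 9.94 in SSBP1-KD HS. Col4a2 gave log2 signals of 9.48, 9.46 and 9.47 in SCR Cont, 9.45, 9.49 and 9.46 in SCR HS, 9.66, 9.70 and 9.67 in HSF1-KD Cont, 9.65, 9.63 and 9.48 in HSF1-KD HS, 9.82, 9.76 and 9.70 in SSBP1-KD Cont and 9.76, 9.72 and 9.67 in SSBP1-KD HS. The SSBP1-KD arrays of both genes were above all SCR arrays, and the HSF1-KD arrays lay between by their means, with replicate 3 of HSF1-KD HS for Col4a2 inside the SCR HS range. In SSBP1-KD, Col4a1 was higher by 0.25 in Cont and 0.30 in HS on the log2 scale, and Col4a2 by 0.29 and 0.25 (limma, adjusted p = 9.46e-04, 2.55e-04, 3.65e-04 and 0.00110). In HSF1-KD Cont the differences were 0.14 for Col4a1 and 0.21 for Col4a2, both past the test. In HSF1-KD HS they were 0.12 and 0.12 and did not pass. For Col4a1 the call in HSF1-KD Cont was lost in 10 of 16 alternative settings (adjusted p = 0.0580 to 0.190), under centring of the array medians, a fit of only the compared arrays, array weights and the methods' t-test and without replicate 1, 2 or 3 of SCR Cont or replicate 1, 2 or 3 of HSF1-KD Cont (0.0580 to 0.190 without these arrays). Col4a2 minus Col4a1 within an array differed from SCR by 0.064 in HSF1-KD Cont, without overlap, and by 0.0070, 0.040 and -0.042 in the other 3 comparisons, where the groups overlapped.

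Col4a6 and its neighbour Col4a5, which share a region of chromosome X with their starts turned away from each other, both fell. Col4a6 gave log2 signals of 8.57, 8.56 and 8.70 in SCR Cont, 8.53, 8.88 and 8.71 in SCR HS, 8.14, 8.04 and 8.05 in HSF1-KD Cont, 8.12, 8.09 and 8.02 in HSF1-KD HS, 7.70, 7.63 and 7.54 in SSBP1-KD Cont and 7.66, 7.61 and 7.94 in SSBP1-KD HS. All knockdown arrays were below all SCR arrays, and its log2 differences were -0.53 ± 0.091 and -0.63 ± 0.091 (SE) in HSF1-KD and -0.99 ± 0.091 and -0.97 ± 0.091 in SSBP1-KD. That made Col4a6 1.98 times lower in SSBP1-KD Cont (limma, adjusted p = 2.64e-06). Col4a5 gave log2 signals of 9.29, 9.26 and 9.28 in SCR Cont, 9.36, 9.42 and 9.32 in SCR HS, 9.07, 9.14 and 9.12 in HSF1-KD Cont, 9.09, 9.03 and 9.07 in HSF1-KD HS, 8.99, 9.01 and 8.93 in SSBP1-KD Cont and 9.03, 8.95 and 8.97 in SSBP1-KD HS. It was lower to a smaller extent, with log2 differences of -0.17, -0.30, -0.30 and -0.38 in the same order. For Col4a5 the call in HSF1-KD Cont was lost in 1 of 16 alternative settings (adjusted p = 0.0707), under a fit of only the compared arrays.

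Col4a4 fell by the test in all 4 comparisons, with log2 differences of -0.20, -0.21, -0.28 and -0.30, while its neighbour Col4a3, dimmer than the median, passed in none (-0.09, -0.09 and -0.08 in HSF1-KD Cont, SSBP1-KD Cont and SSBP1-KD HS). Col4a4 gave 8.07, 8.07 and 8.11 in SCR Cont and 8.08, 8.07 and 8.05 in SCR HS. HSF1-KD gave 7.90, 7.88 and 7.86 in Cont and 7.84, 7.86 and 7.88 in HS. SSBP1-KD gave 7.88, 7.70 and 7.82 in Cont and 7.78, 7.70 and 7.82 in HS. Its mean (7.909) was barely above the median of all probe sets (7.903), and all its knockdown arrays were below that median. For Col4a4 the call in SSBP1-KD Cont was lost in 1 of 16 alternative settings (adjusted p = 0.0552), under the methods' t-test. Type VIII collagen, of vessel walls and the cornea, has the chains Col8a1 and Col8a2. Col8a2 was lower in both knockdowns, with log2 differences of -0.22, -0.32, -0.26 and -0.37. For Col8a2 the call in HSF1-KD Cont was lost in 4 of 15 alternative settings (adjusted p = 0.0546 to 0.180), under a fit of only the compared arrays and the methods' t-test and without replicate 3 of SCR Cont or replicate 3 of HSF1-KD Cont (0.0546 to 0.0861 without these arrays). That in SSBP1-KD Cont was lost in 2 of 15 alternative settings (adjusted p = 0.0848 to 0.132), under a fit of only the compared arrays and the methods' t-test.

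Col8a1 was lower in SSBP1-KD alone by the test. It gave log2 signals of 10.63, 10.67 and 10.69 in SCR Cont, 10.45, 10.68 and 10.55 in SCR HS, 10.67, 10.75 and 10.74 in HSF1-KD Cont, 10.65, 10.55 and 10.49 in HSF1-KD HS, 10.19, 10.35 and 10.28 in SSBP1-KD Cont and 10.32, 10.23 and 10.32 in SSBP1-KD HS, with all SSBP1-KD arrays below all others. Its log2 differences from SCR were -0.39 and -0.27 in SSBP1-KD Cont and HS, against 0.06 and 0.01 in HSF1-KD, and SSBP1-KD differed from HSF1-KD by -0.45 and -0.28 (limma, adjusted p = 7.92e-05 and 0.00425). For Col8a1 the call in SSBP1-KD HS was lost in 1 of 16 alternative settings (adjusted p = 0.0889), under the methods' t-test. Col10a1, of growing cartilage, passed in none of the 4 comparisons, with log2 differences of 0.26 in HSF1-KD Cont and 0.21 in SSBP1-KD Cont. In HS its mean log2 signals were 6.45 in SCR, 6.45 in HSF1-KD and 6.54 in SSBP1-KD.

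**Figure D3:**
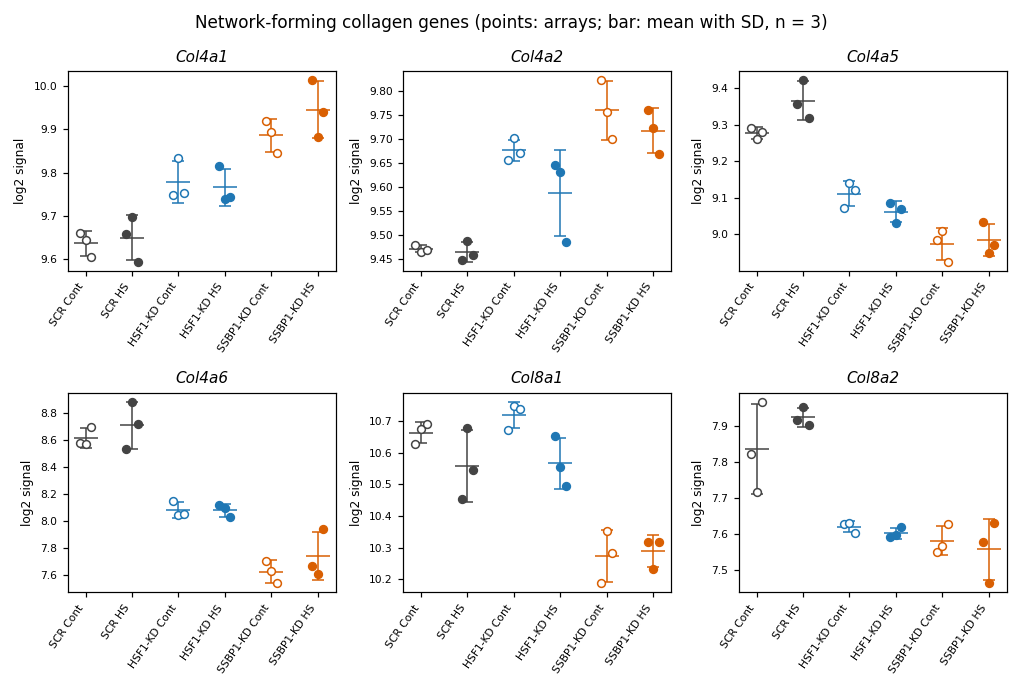
Log2 signals of 6 network-forming collagen genes are plotted by array in the 6 groups, open points for Cont and filled points for HS, with the group mean and SD (n = 3). Col4a1 and Col4a2 stand highest in SSBP1-KD, Col4a5, Col4a6 and Col8a2 are lower in both knockdowns, and Col8a1 is lower in SSBP1-KD.

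Among the 9 FACIT genes Col12a1 alone passed the test. It gave log2 signals of 10.93, 10.93 and 11.07 in SCR Cont, 11.02, 11.16 and 11.10 in SCR HS, 10.17, 10.18 and 10.19 in HSF1-KD Cont, 10.19, 10.17 and 10.10 in HSF1-KD HS, 10.08, 10.23 and 10.23 in SSBP1-KD Cont and 10.36, 10.37 and 10.41 in SSBP1-KD HS. The knockdown arrays lay below the SCR arrays by a wide gap, and HSF1-KD and SSBP1-KD Cont arrays overlapped. Col12a1 was 1.74 times lower in HSF1-KD Cont, 1.92 in HSF1-KD HS, 1.74 in SSBP1-KD Cont and 1.64 in SSBP1-KD HS, with log2 differences of -0.80 ± 0.054, -0.94 ± 0.054, -0.80 ± 0.054 and -0.72 ± 0.054 (SE). The 8 others, among them the type IX chains of cartilage and Col14a1 and Col16a1 of fibril surfaces, differed by -0.09 to 0.21 and did not pass.

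The remaining types moved little. Col18a1, the multiplexin whose end is released as endostatin, differed by -0.16, -0.17, -0.08 and -0.21 and passed in SSBP1-KD HS only (limma, adjusted p = 0.0323). For Col18a1 this call was lost in 6 of 16 alternative settings (adjusted p = 0.0645 to 0.157), under repeated quantile normalization and without replicate 2 or 3 of SCR HS or replicate 1, 2 or 3 of SSBP1-KD HS (0.0645 to 0.126 without these arrays). Col17a1, a transmembrane collagen of epithelial anchoring, rose by 0.20 in SSBP1-KD Cont (limma, adjusted p = 0.0211), where replicate 1 was the highest array. For Col17a1 this call was lost in 4 of 15 alternative settings (adjusted p = 0.0850 to 0.242), under a fit of only the compared arrays and the methods' t-test and without replicate 2 of SCR Cont or replicate 1 of SSBP1-KD Cont (0.0850 to 0.0937 without these arrays). Col7a1 of anchoring fibrils, the transmembrane Col13a1, Col23a1 and Col25a1, the multiplexin Col15a1, and Col26a1 and Col28a1 passed in none of the 4 comparisons.

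The third question was whether both knockdowns lowered these genes to the same level. This direct comparison was added after the data were seen. In Cont, 10 of 44 collagen genes were lower in SSBP1-KD than in HSF1-KD (22.7%, background 16.6%) and 0 were higher (background 12.9%). In HS, 8 were lower (18.2%, background 14.1%) and 2 higher (4.55%, background 11.6%). The shares that were lower lay near those over all symbols. All 8 in HS were among the 10 in Cont. These 8 were Col1a1, Col1a2, Col5a2, Col11a1, Col4a6, Col8a1, Col6a1 and Col6a2. Col6a2 was lower in SSBP1-KD, with log2 differences of -0.68 in Cont and -0.48 in HS, and so was Col6a1, with -0.56 and -0.44 (limma, adjusted p = 1.55e-05, 3.98e-04, 4.40e-06 and 5.45e-05). The log2 differences in Cont and HS were -0.32 and -0.27 for Col1a1, -0.30 and -0.27 for Col5a2, -0.32 and -0.17 for Col1a2, and for Col4a6 -0.45 and -0.34. For Col1a2 the call in HS was lost in 8 of 16 alternative settings (adjusted p = 0.0509 to 0.108), under centring of the array medians, a fit of only the compared arrays and the methods' t-test and without replicate 1, 2 or 3 of HSF1-KD HS or replicate 1 or 2 of SSBP1-KD HS (0.0524 to 0.108 without these arrays). For Col4a6 the call in HS was lost in 5 of 16 alternative settings (adjusted p = 0.0551 to 0.135), under a fit of only the compared arrays and the methods' t-test and without replicate 1 of HSF1-KD HS or replicate 1 or 2 of SSBP1-KD HS (0.0557 to 0.0766 without these arrays).

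Col12a1 went the other way in HS, higher in SSBP1-KD than in HSF1-KD by 0.22 on the log2 scale (limma, adjusted p = 0.00746), and so did Col4a1 by 0.18 (adjusted p = 0.0112). For Col4a1 this call was lost in 3 of 16 alternative settings (adjusted p = 0.0616 to 0.0848), under a fit of only the compared arrays and the methods' t-test and without replicate 1 of SSBP1-KD HS (0.0616 without this array). Col4a5 and Col5a1 were lower in Cont, with log2 differences of -0.14 and -0.15. For Col4a5 this call was lost in 6 of 16 alternative settings (adjusted p = 0.0699 to 0.189), under repeated quantile normalization, a fit of only the compared arrays and the methods' t-test and without replicate 2 or 3 of HSF1-KD Cont or replicate 3 of SSBP1-KD Cont (0.0699 to 0.0921 without these arrays). For Col5a1 this call was lost in 10 of 16 alternative settings (adjusted p = 0.0578 to 0.324), under centring of the array medians, repeated quantile normalization, a fit of only the compared arrays, the replicate block and the methods' t-test and without replicate 1, 2 or 3 of HSF1-KD Cont or replicate 2 or 3 of SSBP1-KD Cont (0.0716 to 0.168 without these arrays). Col3a1 passed in neither, with log2 differences of 0.11 in Cont and 0.13 in HS and 95% intervals of -0.03 to 0.24 and -0.01 to 0.26.

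Genes that build and export the chains were read beside them. Serpinh1, whose product HSP47 is the collagen chaperone and a heat-shock protein, gave log2 signals of 11.68, 11.68 and 11.68 in SCR Cont, 12.06, 12.17 and 12.07 in SCR HS, 11.47, 11.44 and 11.45 in HSF1-KD Cont, 11.38, 11.30 and 11.31 in HSF1-KD HS, 11.37, 11.26 and 11.20 in SSBP1-KD Cont and 11.50, 11.66 and 11.62 in SSBP1-KD HS. It rose with heat in SCR and in SSBP1-KD, with all HS arrays above all Cont arrays, while in HSF1-KD all HS arrays lay below all Cont arrays. The heat effect was 0.42 in SCR, -0.13 in HSF1-KD and 0.32 in SSBP1-KD (limma, adjusted p = 6.13e-05, 0.107 and 0.00161). The difference from the response of SCR was -0.55 ± 0.074 (SE) in HSF1-KD (limma, adjusted p = 0.00209) and -0.11 ± 0.074 in SSBP1-KD (adjusted p = 0.721). Against SCR, Serpinh1 was lower, with log2 differences of -0.22 in HSF1-KD Cont, -0.77 in HSF1-KD HS, -0.40 in SSBP1-KD Cont and -0.51 in SSBP1-KD HS. For Serpinh1 the call of heat shock in SSBP1-KD was lost in 2 of 16 alternative settings (adjusted p = 0.110 to 0.173), under a fit of only the compared arrays and the methods' t-test.

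Of 15 genes for enzymes that modify the chains, 12 were lower in SSBP1-KD Cont (background 16.5%), 8 in SSBP1-KD HS (14.4%), 7 in HSF1-KD HS (10.7%) and 4 in HSF1-KD Cont (10.1%), where Plod3, a lysyl hydroxylase, was the 1 that rose. In the same order 8 of 12, 3 of 8, 3 of 7 and, with Plod3, 4 of 5 of these calls were lost under at least 1 alternative setting. That of Plod3 was lost in 3 of 16 alternative settings (limma, adjusted p = 0.0519 to 0.112). These were centred array medians, a fit of only the compared arrays and the fit without replicate 2 of HSF1-KD Cont. P4ha1, a catalytic subunit of prolyl 4-hydroxylase, differed from SCR by -0.23 and -0.35 in HSF1-KD and -0.58 and -0.50 in SSBP1-KD. Its call in HSF1-KD Cont was lost in 4 of 16 alternative settings (adjusted p = 0.0758 to 0.138), under a fit of only the compared arrays and the methods' t-test and without replicate 3 of SCR Cont or replicate 2 of HSF1-KD Cont (0.0758 to 0.0829 without these arrays). P4ha3, another catalytic subunit, was lower in SSBP1-KD, at log2 differences of -0.66 and -0.48. It was also lower in HSF1-KD HS (limma, adjusted p = 0.0109) and did not pass in HSF1-KD Cont. The P4ha3 call in HSF1-KD HS was lost in 4 of 16 alternative settings (adjusted p = 0.0570 to 0.118). Crtap, a part of the prolyl 3-hydroxylation complex, was lower in SSBP1-KD, at log2 differences of -0.52 and -0.25 and differed by 0.06 and -0.02 in HSF1-KD, which did not pass. With heat, 0 of the 15 rose in any kind of cell, while 6 fell in SCR (background 8.34%), 9 in HSF1-KD (10.8%) and 0 in SSBP1-KD (2.82%). Of the 6 calls in SCR, 4 were lost in 6 or 7 of 16 alternative settings (P4hb, P3h2, Plod2 and Plod3), and of the 9 in HSF1-KD, 4 were lost in at least 1. The difference between the heat responses of SSBP1-KD and SCR passed for 1 of the 15, P3h4. P3h4 encodes a partner of the lysyl hydroxylases. It gave log2 signals of 11.58, 11.56 and 11.57 in SCR Cont, 11.26, 11.17 and 11.23 in SCR HS, 11.15, 11.16 and 11.16 in HSF1-KD Cont, 10.79, 10.79 and 10.76 in HSF1-KD HS, 11.14, 11.14 and 11.13 in SSBP1-KD Cont and 11.12, 11.07 and 11.07 in SSBP1-KD HS. Its heat effect was -0.35 in SCR and -0.38 in HSF1-KD, both past the test, against -0.05 in SSBP1-KD. The difference of heat responses between SSBP1-KD and SCR was 0.30 ± 0.049 (SE; limma, adjusted p = 0.0127). This call was lost in 1 of 22 alternative settings (adjusted p = 0.0923), under a fit of only the compared arrays.

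**Figure D4:**
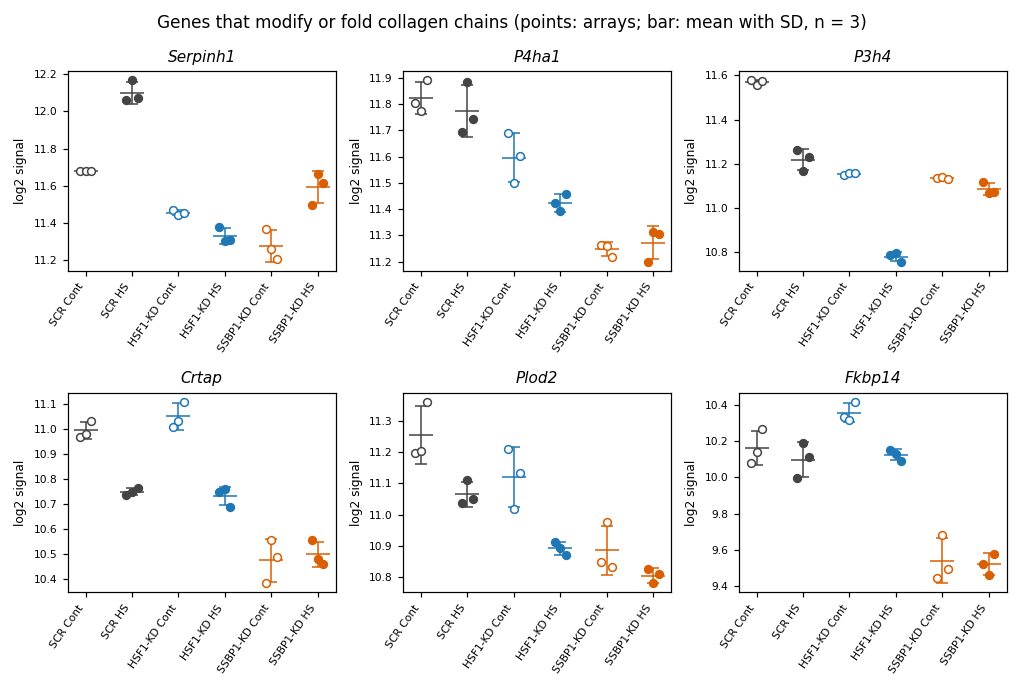
Log2 signals of Serpinh1 and 5 other genes that modify or fold collagen chains are plotted by array in the 6 groups, open points for Cont and filled points for HS, with the group mean and SD (n = 3). Serpinh1 rises with heat in SCR and SSBP1-KD and not in HSF1-KD, and P4ha1, Crtap and Fkbp14 stand lowest in SSBP1-KD.

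Of 10 genes for folding and export, 7 were lower and 1 was higher in SSBP1-KD Cont (background 16.5% and 14.6%), and 3 were lower and 2 higher in HSF1-KD Cont (10.1% and 10.9%). Of these calls 3 of 8 in SSBP1-KD Cont and 4 of 5 in HSF1-KD Cont were lost under at least 1 alternative setting. Fkbp14, a peptidyl-prolyl isomerase of the endoplasmic reticulum, was lower in SSBP1-KD, at log2 differences of -0.62 and -0.58, and differed by 0.19 and 0.03 in HSF1-KD. Mia3 (TANGO1), which loads procollagen into transport vesicles, differed in opposite directions, 0.22 in HSF1-KD Cont and -0.43 in SSBP1-KD Cont, and both passed. For Mia3 the call in HSF1-KD Cont was lost in 1 of 16 alternative settings (adjusted p = 0.0505), without replicate 2 of HSF1-KD Cont. That in SSBP1-KD Cont was lost in 1 of 16 alternative settings (adjusted p = 0.0517), under the methods' t-test. Mia2, a relative of Mia3, was higher in all 4 comparisons, by 0.32 to 0.59, and rose with heat in all 3 kinds of cells, by 0.53, 0.67 and 0.55. For Mia2 the call in HSF1-KD Cont was lost in 5 of 15 alternative settings (adjusted p = 0.0522 to 0.142), under a fit of only the compared arrays and the methods' t-test and without replicate 1 or 3 of SCR Cont or replicate 3 of HSF1-KD Cont (0.0522 to 0.0788 without these arrays). Those in HSF1-KD HS and of heat in SCR and SSBP1-KD were lost under the methods' t-test.

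Of 9 genes for the trimming of propeptides, 2 were lower and 2 higher in HSF1-KD Cont (background 10.1% and 10.9%). In HSF1-KD HS 2 were lower and 2 higher (10.7% and 13.1%). In SSBP1-KD 3 were lower and 2 higher in Cont (16.5% and 14.6%), and 2 lower and 2 higher in HS (14.4% and 14.3%). Pcolce2, an enhancer of the trimming, was higher in HSF1-KD by 0.55 and 0.57 and in SSBP1-KD by 0.75 and 1.13. Tll1, a protease related to Bmp1, was higher by 0.37, 0.31, 0.69 and 0.69. Adamts14, which removes N-propeptides, was lower, at log2 differences of -0.26, -0.49, -0.38 and -0.41, all past the test. Adamts3, another of the 9, was lower in HSF1-KD Cont and HS (limma, adjusted p = 8.24e-05 and 2.14e-05), under every alternative setting. Its values in SSBP1-KD are not given here. Of 9 receptors, 1 was lower and 2 were higher in HSF1-KD Cont, and 4 were lower and 1 higher in HSF1-KD HS. In SSBP1-KD 4 were lower and 3 higher in Cont, and 4 lower and 2 higher in HS (the background shares are those just given). Itga11, an integrin chain for fibrillar collagen, was lower, at log2 differences of -0.52, -0.48, -0.71 and -0.67. Mrc2, the receptor that takes up collagen, was lower at -0.31, -0.34 and -0.37 in the 3 comparisons where it passed. Itga10, another collagen-binding integrin chain, was higher by 0.32, 0.24, 0.35 and 0.21. Calls of Tll1 in HSF1-KD Cont, of Pcolce2, Mrc2 and Itga10 in HSF1-KD HS and of Itga11 in SSBP1-KD HS were lost under the methods' t-test, that of Tll1 also with the compared arrays only.

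Fibroblast markers moved with the knockdowns beside the collagen genes. Of 11 markers, 4 were lower and 3 higher in HSF1-KD Cont (background 10.1% and 10.9%), and 5 lower and 3 higher in SSBP1-KD Cont (16.5% and 14.6%), with medians of -0.079 and -0.013 over the list. Pdgfrb, a growth-factor receptor of mesenchymal cells, was lower, at log2 differences of -0.35 and -0.98 in these comparisons, Pdgfra at -0.40 and -0.72, and Prrx1, a transcription factor of limb mesenchyme, at -0.46 and -0.46, whereas Vim differed by 0.03 and 0.09 and passed in neither. Those that rose were Fap, a surface protease, by 0.59, S100a4 by 0.28 and Nt5e by 0.27 in HSF1-KD Cont, and Twist2 by 0.32, Thy1 by 0.23 and Twist1 by 0.15 in SSBP1-KD Cont. Of the other cell types, 1 of 6 endothelial, 2 of 5 immune, 2 of 6 chondrocyte, 1 of 4 osteoblast, 1 of 5 muscle and 1 of 4 adipocyte markers were brighter than the median of all probe sets. The summed signal of the 6 endothelial markers was 888 to 924 in SCR Cont, 1024 to 1060 in HSF1-KD Cont and 929 to 1089 in SSBP1-KD Cont. In HS it was 885 to 939 in SCR, 980 to 1051 in HSF1-KD and 991.5 to 996 in SSBP1-KD. In HSF1-KD HS 2 of the 6 rose (33.3%, background 13.1%). In each other comparison with SCR 1 rose (16.7%, background 10.9% to 14.6%), and 0 fell in any. Of the 4 osteoblast markers, 1 was lower in SSBP1-KD Cont, 1 in SSBP1-KD HS and 1 in HSF1-KD HS (25% each, background 16.5%, 14.4% and 10.7%). None rose in these comparisons, and 0 passed in HSF1-KD Cont. The 1 that was lower in SSBP1-KD was Alpl, at log2 differences of -0.72 and -0.76. The summed signal of the 4 osteoblast markers was 683 to 759 in SCR Cont, 615 to 692 in HSF1-KD Cont and 535 to 580 in SSBP1-KD Cont. In HS it was 699.7 to 773 in SCR, 606 to 637 in HSF1-KD and 532.5 to 568 in SSBP1-KD. The chondrocyte marker Sox9 was higher in SSBP1-KD Cont, at a log2 difference of 0.64, while in SSBP1-KD HS it differed by 0.15 and 0 of the 6 chondrocyte markers passed. Their summed signal was 1389 to 1497 in SCR Cont and 1899 to 1997 in SSBP1-KD Cont, against 1905 to 2000 in SCR HS and 2051 to 2107 in SSBP1-KD HS. In HSF1-KD it was 1317 to 1425 in Cont and 1497 to 1572 in HS. Of the 6, 1 fell in HSF1-KD Cont and 2 in HSF1-KD HS (background 10.1% and 10.7%), and 0 rose. The summed signal of the 5 immune markers was 1100 to 1194 in SCR Cont, 1337 to 1443 in HSF1-KD Cont and 1381 to 1534 in SSBP1-KD Cont, and in HS 1538 to 1767 in SCR, 1739 to 1815 in HSF1-KD and 1891 to 1938 in SSBP1-KD, with Cd68 higher in all 4 comparisons and Ptprc past the test in none. In HSF1-KD HS 1 of the 5 immune markers was lower past the test, at a log2 difference of -0.51 (20%, background 10.7%). With heat, 2 of the 5 rose in each kind of cells (40%). Over all symbols 7.63% rose with heat in SCR, 10.6% in HSF1-KD and 4.08% in SSBP1-KD. The part of the cell type markers in the collagen results was not tested.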

How the data were processed

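The authors deposited 1 table of RMA log2 signals for 35557 probe sets on 18 arrays, 3 in each of 6 groups, and their notes name Partek 6.5. Background correction and normalization were theirs and were not repeated, and all columns of the table matched a sample. Arrays carry no read depth, so their number limits the precision.

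Symbols came from the platform annotation: 21789 probe sets had 1 symbol, 1621 several and 12147 none, and 21698 were matched to current RefSeq names. Signals were fitted with limma 3.58.1 (R 4.3.3, lmFit and eBayes) with 1 mean per group over all 18 arrays, 12 residual and 2.36 prior degrees of freedom, with Benjamini-Hochberg adjustment across the whole table of probe sets. A gene rose or fell at an adjusted p under 0.05. Shares over all symbols are given as background. The fit was tested on simulated data.

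Alternatives were centred array medians, repeated quantile normalization, the brighter probe sets only, probe sets with 1 symbol only, the least bright probe set per symbol, the compared arrays only, the replicate block, a trended and robust prior, array weights, the t-test that the methods name, and each array left out. Within-array chain pairs were tested by exact permutation with scipy 1.17.1.

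The rule for naming allowed all collagen genes and members of the lists of modifying enzymes, folding and export, propeptide processing, receptors and cell type markers. The members and lists were chosen with earlier results of these data known. The comparisons of SSBP1-KD with HSF1-KD were added after the data were seen. Col21a1, Fkbp10, Adamts2, Gp6, Fbn1 and Bglap were listed and matched no probe set with 1 symbol, and 1 other listed gene is not reported here. The model that the study used for the arrays is not given in the sources used here.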

Additional observations from a re-analysis of the deposited data

Results flagged for a closer look

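Serpinh1, the gene of the collagen chaperone HSP47, rose with heat in SCR by 0.42, where all HS arrays were above all Cont arrays. In HSF1-KD its heat effect was -0.13 and did not pass (limma, adjusted p = 0.107), with all HS arrays below all Cont arrays. The difference between these heat responses was tested and was -0.55 (limma, adjusted p = 0.00209), and it passed under all 22 alternative settings. P3h4, a partner of the lysyl hydroxylases, had a heat response that was higher in SSBP1-KD than in SCR by 0.30 (limma, adjusted p = 0.0127), with 1 of 22 alternative settings in which it did not pass (adjusted p up to 0.0923).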

How the results depend on the processing

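Of 79 calls of collagen genes over all comparisons, 57 passed under every alternative setting that was run and 22 were lost under at least 1. Of 184 calls of genes for modification, folding, trimming and receptors, 92 were lost under at least 1, among them 11 of 15 with heat in SCR, 12 of 22 in HSF1-KD and 3 of 3 in SSBP1-KD. All 11 collagen calls of HSF1-KD against SCR in HS passed under every one. The setting with the least bright probe set could lose no collagen call, since each called collagen gene had 1 probe set. With heat in SCR the count of 0 collagen genes became 2 with array weights and 1 with the methods' t-test. In HSF1-KD the count of 2 became 0 with the compared arrays only and 1 with the replicate block, and ranged from 0 to 1 with 1 array left out. In SSBP1-KD the count of 1 became 0 with repeated quantile normalization, with the compared arrays only and with the methods' t-test and 2 with array weights, and ranged from 0 to 1 with 1 array left out. HSF1-KD against SCR in Cont fell from 13 to 8 collagen genes with the compared arrays only, a fit with fewer samples. Among the other lists, Tmem38b in SSBP1-KD Cont turned from -0.30 to 0.014 when its least bright probe set was read.

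The replicate numbers did not pair the arrays: 6 of 45 correlations between arrays of the same number were above 0.1 (range -0.28 to 0.17), and for 6 of 18 arrays the nearest array outside the group carried the same number. With the replicate block, 13, 11, 16 and 16 collagen genes were called in the 4 comparisons with SCR.

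Signal sets a further limit. For the 14 collagen genes dimmer than the median of all probe sets the median standard error was 0.088, against 0.062 for the 30 brighter ones. Small differences there can be missed with 3 arrays a group. Of these dimmer genes, Col8a2 still fell in all 4 comparisons with SCR and Col17a1 rose in 1.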
